A study of Mus musculus with 6 samples.

Results

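The 10 genes described here are protein-coding genes of the mouse mitochondrial genome whose products are core subunits of the respiratory chain and of ATP synthase: ND1, ND2, ND4, ND5, ND6, CYTB, COX1, COX2, COX3 and ATP6. They are the rows of the count table that lie on chrM and carry one of these names, 10 of the 35977 genes in the table and of the 13 genes it lists on chrM. The other 3, ND3, ND4L and ATP8, are given only where a result turns on them, and the ribosomal and transfer RNAs of chrM were not analysed here. Messenger RNA was sequenced from bulk mouse liver after delivery of adeno-associated virus 9 (AAV9). In the 3 libraries called Cre (replicates 10, 11 and 12) the vector was AAV-Tnnt2-Cre, named for Cre recombinase and for Tnnt2, a heart muscle gene (cardiac troponin T) whose promoter is used to express transgenes in cardiomyocytes. In the 3 libraries called Cre-miR122 (replicates 1, 2 and 4) it was AAV-Tnnt2-Cre-miR122. The labels do not describe the added element; vectors named in this way usually carry target sites for miR-122, an abundant hepatocyte microRNA, which lower transgene expression in liver. Both groups therefore carried a Cre vector, there was no library without one among those compared, and the labels state no strain, age, sex, dose, time after injection or floxed allele.

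Mammalian mitochondrial DNA is a small circle that is transcribed from both strands as long precursors. These are cut, mostly at the transfer RNAs, into messengers, some of which carry overlapping genes. The messengers are translated inside the organelle, and their products are joined there by many more subunits made from nuclear genes: complex I (ND genes) takes electrons from NADH, complex III (CYTB) passes them to cytochrome c, complex IV (COX genes) hands them to oxygen, and complex V (ATP6) uses the proton gradient to make ATP. In liver this machinery serves urea synthesis, gluconeogenesis and fatty acid oxidation. Copies of mitochondrial DNA have also been inserted into nuclear chromosomes during evolution, and reads from such a stretch match both genomes.

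Total counts per library lay between 20340994 and 20817837. The hepatocyte markers Alb, Ttr and Apoa1, the genes of albumin, transthyretin and apolipoprotein A1, were abundant in each library, and the 8 hepatocyte markers summed to 122132 to 146584 CPM (counts scaled to the same library size) with Cre and 141649 to 143233 CPM with Cre-miR122. Summed markers of heart and skeletal muscle, tissues rich in mitochondria, reached at most 1.40 CPM in any library, with Actc1 at 0 counts in all of them. The Cre row had 61, 50 and 37 counts in Cre libraries 10, 11 and 12, and 12, 16 and 10 in Cre-miR122 libraries 1, 2 and 4. Cre replicate 10 had 1676 counts of the Y-linked gene Ddx3y and 5 of Xist, which coats the inactive X chromosome, whereas each of the other libraries had at least 15778 counts of Xist and at most 1 of Ddx3y. It was the only male library by these genes. Fold changes of the members and medians of most nuclear gene lists of the respiratory chain are therefore given with and without it. The opposite sex by these genes means that Cre replicate 10 shares no mouse with any other library. Spread within the Cre group therefore includes a difference between mice. For the remaining libraries the labels do not state separate animals, so the rest of the spread behind each p-value may be technical.

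On chrM of the mouse build mm10 each member is a single uninterrupted coding interval. ND1 lies at chrM:2751-3707, ND2 at chrM:3914-4951, COX1 at chrM:5328-6872, COX2 at chrM:7013-7696, ATP6 at chrM:7927-8607, COX3 at chrM:8607-9390, ND4 at chrM:10167-11544, ND5 at chrM:11742-13565 and CYTB at chrM:14145-15288, all on the plus strand. ND6, at chrM:13552-14070, is the only member on the minus strand. Its last 14 bases face the end of ND5, and ATP6 shares 43 bases with ATP8 and 1 base with COX3. ND4 shares 7 bases with ND4L. No source used here gives the strand setting of the counting, and reads in the overlap of ND5 and ND6 cannot be assigned with certainty. If strand was ignored, any plus-strand reads over the rest of ND6 would also count for ND6.

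The members differ in how closely a nuclear copy resembles them, and the stretches printed next show this. Among GENCODE M21 transcripts of the same build, 7 annotated pseudogenes on chromosome 1 match 4140 bases of chrM genes with 2 mismatches in all. They lie within chr1:24611535-24616188 on the minus strand and face chrM:6390-11042. Chromosome 1 and chrM coordinates add up to the same number for 5 of these copies and to a number 1 base smaller for the other 2, the copies of ND4L and ND4. The copies of COX2 (Gm28661), ATP6 (Gm10925) and COX3 (Gm28437) match over 681, 678 and 783 bases without a mismatch, the copy of ND4 (Gm28439) covers its first 876 bases without a mismatch, and the copy of COX1 (Gm29216) covers the last 483 bases with 1 mismatch. Sequences are from GENCODE M21, written 5′ to 3′ on the strand of the gene, with capitals at bases where the gene and its nuclear copy differ.
COX1, chrM:6390-6449: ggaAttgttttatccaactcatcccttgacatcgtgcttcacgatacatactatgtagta
Gm29216, chr1:24616129-24616188: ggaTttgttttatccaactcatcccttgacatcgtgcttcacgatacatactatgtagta
COX2, chrM:7013-7072: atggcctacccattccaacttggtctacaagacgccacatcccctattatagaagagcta
Gm28661, chr1:24615506-24615565: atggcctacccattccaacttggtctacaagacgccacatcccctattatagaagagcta
ATP6, chrM:7927-7986: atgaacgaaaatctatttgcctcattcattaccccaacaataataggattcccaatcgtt
Gm10925, chr1:24614592-24614651: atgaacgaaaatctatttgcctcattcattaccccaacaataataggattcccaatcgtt
COX3, chrM:8607-8666: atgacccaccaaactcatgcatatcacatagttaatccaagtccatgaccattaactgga
Gm28437, chr1:24613912-24613971: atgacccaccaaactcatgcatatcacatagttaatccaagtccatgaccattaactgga

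COX1 and its copy differ by the substitution A1066T, counted from the first base of COX1, and the starts of the other 3 genes are letter for letter the same in both genomes. ND6 and CYTB have older copies on chromosome 4 that differ at many bases, 93.6% identical over 519 bases for ND6 (Gm11408) and 92.9% identical over 1142 bases for CYTB (Gm11410). Their first aligned 60 bases hold 2 and 3 differences.
ND6, chrM:14011-14070: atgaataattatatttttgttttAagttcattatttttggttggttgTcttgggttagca
Gm11408, chr4:80003855-80003914: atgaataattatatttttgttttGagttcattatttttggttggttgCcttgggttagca
CYTB, chrM:14146-14205: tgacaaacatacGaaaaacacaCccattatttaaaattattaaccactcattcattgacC
Gm11410, chr4:80003990-80004049: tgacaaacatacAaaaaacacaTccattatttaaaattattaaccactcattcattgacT

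Levels per length split the members into 2 sets. CPM per kilobase, with library sizes scaled by edgeR's trimmed mean of M-values (TMM) and averaged over all 6 libraries, was 16140 ± 1738 (SD, n = 6) for COX1, the catalytic subunit of complex IV, and 10896 ± 1114 for CYTB, the cytochrome b of complex III. ND1 and ND2, membrane subunits of complex I, followed at 7471 ± 1022 and 6841 ± 1087 CPM per kilobase. ND5 and ND4, also membrane subunits of complex I, were at 4300 ± 824 and 3565 ± 387, and ND6 at 3172 ± 472 CPM per kilobase. The remaining 3 members lay far below these: ATP6, the proton-channel subunit of complex V, was at 81.0 ± 12.9 CPM per kilobase, COX3 at 52.0 ± 8.10, and COX2, which receives electrons from cytochrome c, at 49.98 ± 8.26. ND1 thus stood 92.2 times above ATP6, 144 times above COX3 and 149 times above COX2 per length.

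This order was the same in each library for most neighbours. The 6-library ranges did not overlap between COX1 and CYTB, CYTB and ND1, ND2 and ND5, ND6 and ATP6, or ATP6 and COX3. ND1 was above ND2 and ND4 above ND6 in 6 of 6 libraries although their ranges overlapped, and ND5 was above ND4 in 5 of 6. COX3 and COX2 did not differ beyond their spread, COX3 being higher in 3 of 6 libraries. With TPM (counts per length, scaled to the same sum over all genes in each library) in place of scaled counts, COX1 stood at 2.16 times ND1 and COX2 at 0.00669 times ND1, as with CPM per kilobase.

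The 3 low members are the ones with an annotated nuclear copy that is both almost whole and free of mismatches. COX1 has a copy over its whole length on chromosome 2 (Gm13340), but it is 97.6% identical. Of all 100-base windows within a gene, the share with an exact match in an annotated nuclear transcript was 99.5% for COX2, 99.5% for ATP6 and 99.9% for COX3. It was 60.8% for ND4, 30.8% for COX1, 3.19% for ND2 and 0% for ND1, ND5, ND6 and CYTB. Windows of 50 bases raised COX1 to 51.1% and windows of 150 bases lowered it to 23.6%, while the 3 low members stayed above 99% in both, at 100%, 99.5% and 99.9% for 50 bases in the order COX2, ATP6 and COX3. How reads with several matches were counted, and how long reads were, is not stated in any source used here. The part of the nuclear copies in the low counts was not tested, so levels of COX2, COX3 and ATP6, and those of COX1 and ND4 in part, are uncertain. None of the 6 nuclear copies looked for by name (Gm10925, Gm28437, Gm28438, Gm28439, Gm28661 and Gm29216) has a row in the count table.

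**Figure D1:**
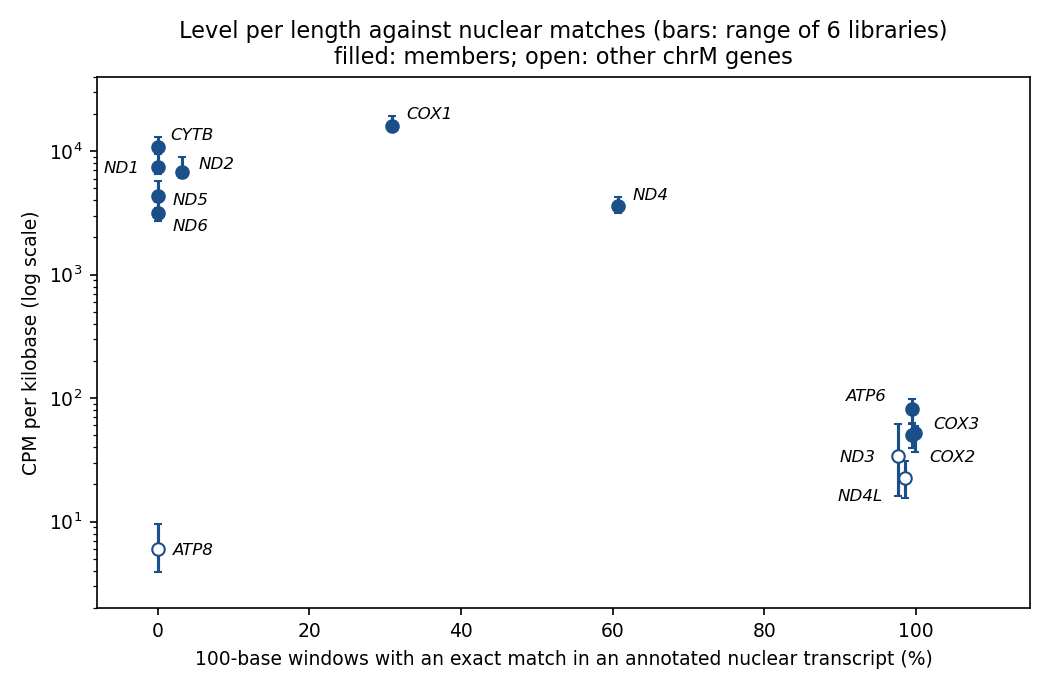
CPM per kilobase of the 13 genes on chrM (log scale, points at the mean and bars over the range of 6 libraries) against the percent of 100-base windows with an exact match in an annotated nuclear transcript. ATP6, COX3 and COX2 lie at 81.0, 52.0 and 49.98 with 99.5% to 99.9% matched, and ATP8 lies lowest, at 6.02 with 0% matched.

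The 3 other chrM genes were low as well. ND4L and ATP8 overlap ND4 and ATP6, so their levels need not be those of separate messengers. ND3 and ND4L, small membrane subunits of complex I, were at 33.9 ± 21.4 and 22.4 ± 6.33 CPM per kilobase, and 97.6% and 98.5% of their windows matched a nuclear copy. ATP8, a small subunit of complex V, was at 6.02 ± 2.10 CPM per kilobase with no matched window. It faces, for 161 bases, the 233 bases between Gm10925 and Gm28661 on chromosome 1 (chr1:24614652-24614884), where no copy is annotated and whose sequence was not compared. Counts of ND3 fell into separate sets that did not follow the vectors: 456 in Cre replicate 11 and 440 in Cre-miR122 replicate 4, against 175 and 156 in Cre replicates 10 and 12 and 112 and 126 in Cre-miR122 replicates 1 and 2. The reference sequences of ND3 and its copy Gm28438 differ at 1 base of 345, T3C counted from the first base of ND3, which is chrM position 9461.
ND3, chrM:9459-9518: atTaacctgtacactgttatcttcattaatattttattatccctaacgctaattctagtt
Gm28438, chr1:24613060-24613119: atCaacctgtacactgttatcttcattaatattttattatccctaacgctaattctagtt

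The comparison of the vectors asks whether livers given the 2 vectors differed in these messengers. All 10 members had a lower mean with Cre-miR122, by 1.11-fold for COX1 to 1.25-fold for ATP6, and none passed the test. All 10 passed the filter on low counts and were tested among 14374 genes. By edgeR's quasi-likelihood test with Benjamini-Hochberg adjustment over all genes, 0 of 10 members and 0% of all genes were called (smallest adjusted p = 0.816). Lower at an unadjusted p under 0.05 were 2 of 10 members, COX2 and ATP6, against 2.65% of all genes tested. DESeq2 and limma-voom also called 0 members, with 3 and 2 members at an unadjusted p under 0.05. Over all 14374 genes DESeq2 called 3 and limma-voom 0, and the genes at an unadjusted p under 0.05 numbered 778 by edgeR, 520 by DESeq2 and 796 by limma-voom. The median log2 fold change of the members was -0.22, against -0.0029 over all genes, of which 50.6% lay below 0. Members share their precursors and libraries, so they are not independent of each other. In bulk tissue, fewer cells of a type and less RNA per cell cannot be told apart.

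Complex I genes were followed in each library. ND1 was at 9000.3, 6711 and 7179 CPM in Cre replicates 10, 11 and 12 and at 7191, 6232 and 6584 CPM in Cre-miR122 replicates 1, 2 and 4. The first Cre value stood above all the rest and the groups overlapped (log2 fold change -0.19, SE 0.13, edgeR adjusted p = 0.819). ND2 had 9332, 6816 and 6935 CPM with Cre and 6888, 6252 and 6385 CPM with Cre-miR122. Its high value was again Cre replicate 10, and Cre-miR122 replicate 1 lay between the other Cre libraries (log2 fold change -0.24, SE 0.14, edgeR adjusted p = 0.816).

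ND4 was the one complex I gene among the members whose groups did not overlap. It was at 5849, 4929 and 5043 CPM with Cre and 4841, 4456 and 4355 CPM with Cre-miR122. The gap between the nearest libraries, 4929 and 4841 CPM, was small beside the SD of 502 with Cre (log2 fold change -0.21, SE 0.11, edgeR adjusted p = 0.816). ND5 varied most within the Cre group, at 10509, 6368 and 8466 CPM, a coefficient of variation of 24.5%. With Cre-miR122 it was at 7670, 6668 and 7375 CPM, all inside the Cre range (log2 fold change -0.22, SE 0.17, edgeR adjusted p = 0.821). ND6, annotated on the other strand, had 2011, 1405 and 1813 CPM with Cre and 1737, 1430 and 1483 CPM with Cre-miR122. Its 3 Cre-miR122 libraries also lay inside the Cre range (log2 fold change -0.17, SE 0.14, edgeR adjusted p = 0.827).

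Members of complexes III, IV and V went the same way. CYTB was at 14766, 12152 and 12869 CPM with Cre and at 12330, 11377 and 11296 CPM with Cre-miR122. Cre-miR122 replicate 1 exceeded Cre replicate 11, and the other Cre-miR122 libraries lay below all Cre libraries (log2 fold change -0.18, SE 0.12, edgeR adjusted p = 0.816). COX1 alone took 2.28% to 2.96% of all counts. It was at 29859, 22980 and 25944 CPM with Cre and 23497, 22748 and 24591 CPM with Cre-miR122, so that Cre replicate 11 fell below 2 of the 3 Cre-miR122 libraries (log2 fold change -0.15, SE 0.13, edgeR adjusted p = 0.828).

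COX2, COX3 and ATP6 rest on few reads, with 557 to 1356 counts per library. Counts of COX2 were 851, 792 and 682 in the Cre libraries against 730, 557 and 591 in the others, or 42.2, 36.9 and 34.1 against 36.4, 26.9 and 28.6 CPM. Only Cre-miR122 replicate 1 reached into the Cre range (log2 fold change -0.30, SE 0.13, unadjusted p = 0.0428, edgeR adjusted p = 0.816). COX3 was at 43.8, 46.6 and 41.0 CPM with Cre and 40.7, 28.5 and 43.7 CPM with Cre-miR122. Cre-miR122 replicate 2 stood apart below the other 5 libraries, which lay between 40.7 and 46.6 CPM (log2 fold change -0.22, SE 0.15, edgeR adjusted p = 0.816). ATP6 had 67.2, 57.7 and 58.96 CPM in the Cre libraries and 57.4, 42.7 and 47.2 CPM in the others. All its Cre-miR122 libraries lay below all Cre libraries, the nearest at 57.4 and 57.7 CPM (log2 fold change -0.32, SE 0.12, unadjusted p = 0.0229, edgeR adjusted p = 0.816). ATP6 and ND4 were the 2 of 10 members without overlap in this direction, as 5.45% of all tested genes were. Without overlap, an exact two-sided permutation test of 3 libraries against 3 gives p = 0.1 by construction, the smallest it allows. It therefore adds nothing for these genes.

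**Figure D2:**
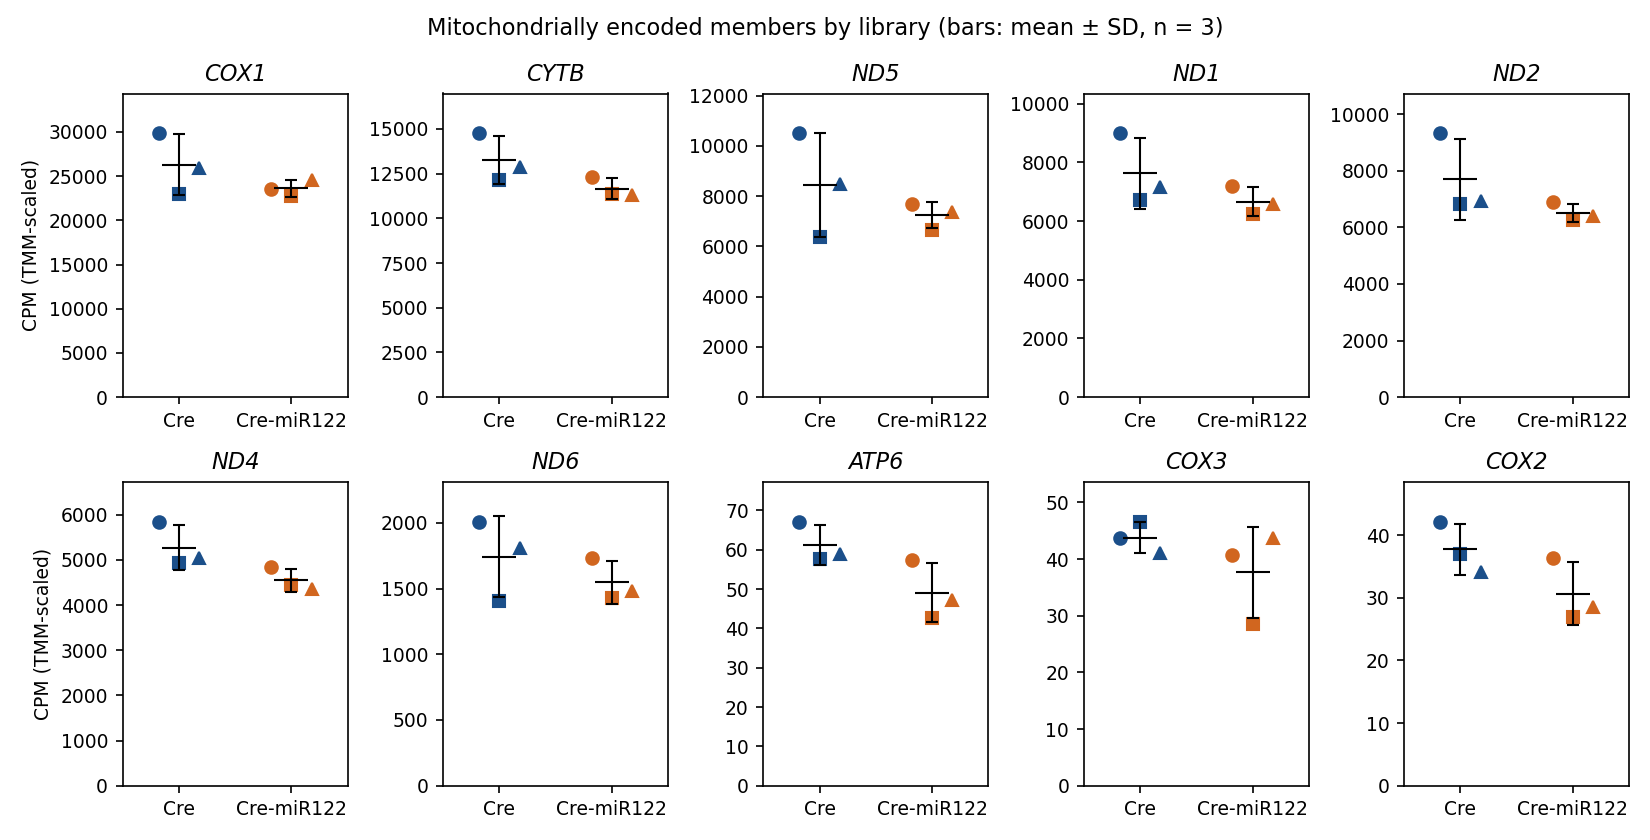
TMM-scaled CPM of each member in each library, with circles, squares and triangles for Cre replicates 10, 11 and 12 (blue) and Cre-miR122 replicates 1, 2 and 4 (orange), and bars at the mean ± SD (n = 3). In 9 of 10 panels the blue circle, Cre replicate 10, is the highest point, and only ND4 and ATP6 have all orange points below all blue ones.

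One library carried much of the difference. Cre replicate 10 had the highest value of 9 of 10 members, COX3 being highest in Cre replicate 11, while 15.8% of all tested genes were highest in Cre replicate 10. The members took 8.08% of its counts, against 6.49% and 6.66% in Cre replicates 11 and 12 and 6.32%, 5.93% and 6.17% in Cre-miR122 replicates 1, 2 and 4. The group means were 7.08 ± 0.872% and 6.14 ± 0.194% (SD, n = 3 each). At the other end, Cre-miR122 replicate 2 had the lowest value of 6 of 10 members, where 14.4% of all tested genes were lowest. Relative to the gene's own mean, the median member stood 0.30 higher on the log2 scale in Cre replicate 10, and at -0.19 in Cre-miR122 replicate 2. The other 4 libraries lay between -0.14 and 0.048.

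Without the male library Cre replicate 10 the members stayed below 0, and most shrank. The median log2 fold change went from -0.22 to -0.090. ND5 went to -0.035, COX1 to -0.051, ND6 to -0.054, ND1 to -0.059 and ND2 to -0.079. CYTB and ND4 were at -0.10 and -0.13. COX2, COX3 and ATP6, the members with few counts, were at -0.21, -0.22 and -0.25. None was called in this comparison of 2 against 3 libraries (smallest edgeR adjusted p of a member 0.848), and 0 members had an unadjusted p under 0.05, where 821 of all 14563 genes tested had one. Whether the difference of Cre replicate 10 goes with sex cannot be told apart from the library, since it was the only male one.

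Single libraries of the other kind moved the members too. Without Cre replicate 11, which was low for ND5 and ND6, ND5 went to -0.39 and the count of members at an unadjusted p under 0.05 from 2 to 8, while over all genes it was 467 of 14514. Without Cre-miR122 replicate 2, COX3 went from -0.22 to -0.054 and that count to 0, with 623 of 14630 over all genes. It was also 0 without Cre-miR122 replicate 4, where the count over all genes was 425 of 14641. Without Cre-miR122 replicate 1 COX2 and ATP6 were each at -0.44.

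**Figure D3:**
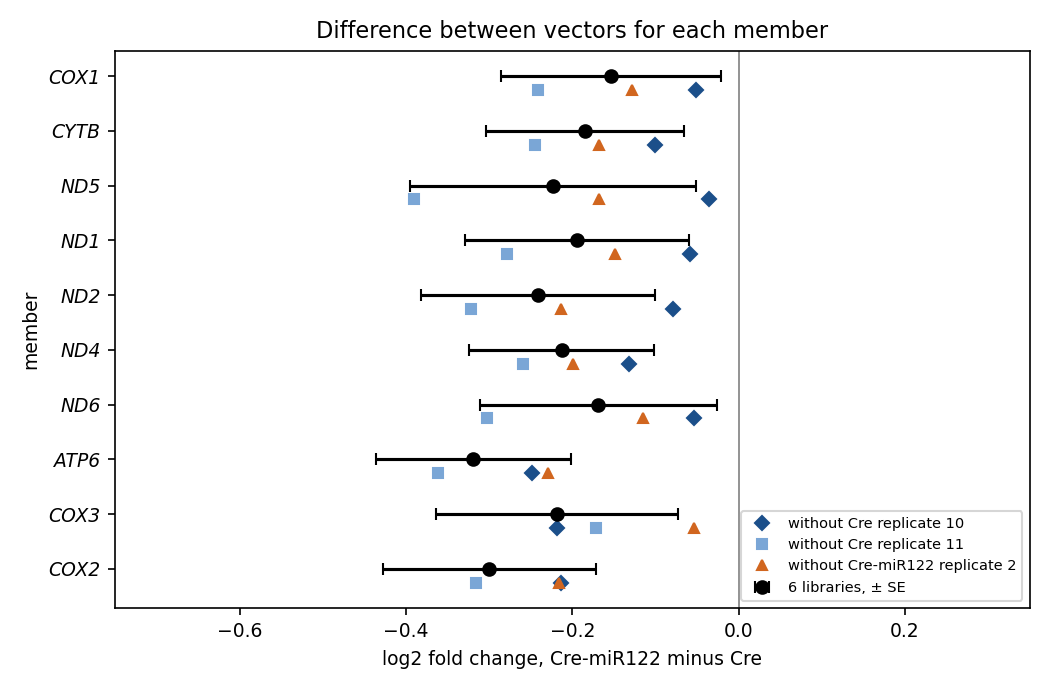
Log2 fold change of each member, Cre-miR122 minus Cre, with all 6 libraries (black, bars ± SE) and with 1 library left out (colours). All values lie below 0, and without Cre replicate 10 (dark blue diamonds) they run from -0.25 for ATP6 to -0.035 for ND5.

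The balance among the members did not separate the groups. COX1 made up 37.3 ± 0.648% of the members' counts with Cre and 38.2 ± 1.51% with Cre-miR122, and CYTB 18.9 ± 0.821% and 18.8 ± 0.592%. ND5 took 11.9 ± 1.34% and 11.7 ± 0.373%, ND2 10.9 ± 0.676% and 10.5 ± 0.226%, and ND1 10.8 ± 0.286% and 10.8 ± 0.368%. ND4 and ND6 held 7.52 ± 0.437% and 2.47 ± 0.183% with Cre. With Cre-miR122 ND4 held 7.35 ± 0.301%. Such shares do not depend on library scaling, and the groups overlapped for all 10 members. On the log2 scale the difference between groups in the share ran from -0.15 for ATP6 to 0.032 for COX1, and no exact permutation test over the 6 libraries gave a p below 0.3.

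Single libraries differed in the balance. The ratio of ND5 to CYTB counts was 0.524 in Cre replicate 11 and 0.712 in Cre replicate 10, with 0.586 to 0.658 in the other 4 libraries. The ND6 row, annotated on the other strand, kept a ratio to ND5 of 0.191 to 0.227. Without the strand setting this cannot be read as a ratio between products of both strands. COX1 to CYTB was 1.89 to 2.18. The profile of ND1 over the 6 libraries was nearest to the mean profile of the members, at a root mean square difference of 0.036 on the log2 scale, and those of COX3 and ND5 were farthest, at 0.19 and 0.12. As a share of the members' counts, COX3 was highest in Cre replicate 11 and Cre-miR122 replicate 4, at 0.0758% and 0.0703%. It stood 0.21 and 0.12 above its own mean in them, but also 0.12 above it in Cre replicate 10. Its share was 0.0481% to 0.0634% in the other 4 libraries. Cre replicate 11 and Cre-miR122 replicate 4 are the libraries with the high ND3 counts, and ND3 is the next protein gene along chrM.

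**Figure D4:**
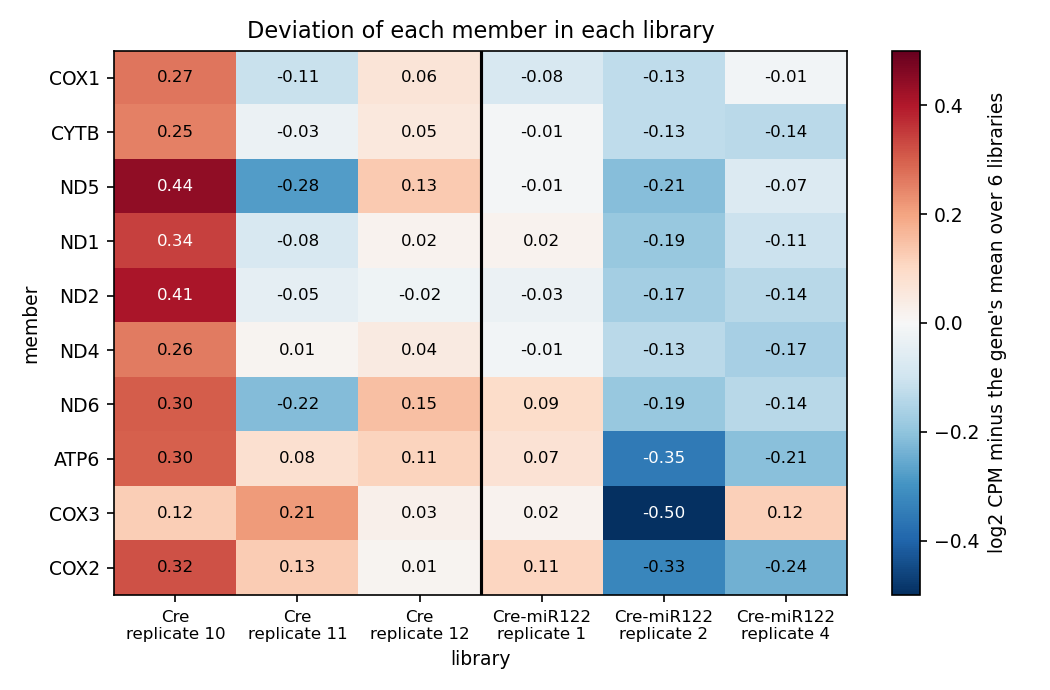
Log2 CPM of each member in each library minus the gene's own mean over 6 libraries (colour and printed value). The Cre replicate 10 column is above 0 for all 10 members and the Cre-miR122 replicate 2 column below 0 for all 10, down to -0.50 for COX3.

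The nuclear genes of the same complexes leaned the same way, by a smaller amount in the median. Of 71 nuclear subunits of complexes I, III, IV and V, 61 were below 0 in log2 fold change and their median was -0.10, against -0.22 for the members. None was called by edgeR, 1 was lower at an unadjusted p under 0.05 and 1 had no overlap between groups, in both cases Ndufb4, an accessory subunit of complex I (24.3 ± 3.09 CPM with Cre, 19.3 ± 1.05 with Cre-miR122, log2 fold change -0.33, SE 0.11, adjusted p = 0.816). Over all genes tested the corresponding shares were 2.65% and 5.45%. Without Cre replicate 10 the nuclear median was -0.059, against -0.090 for the members, and 47 of 71 nuclear genes lay below 0. In that fit ND5, COX1, ND6 and ND1, at -0.035 to -0.059, were no farther from 0 than the nuclear median. Cre replicate 10 was the highest library for 50 of these 71 genes, and their median stood 0.14 above the gene mean there. Cytosolic ribosomal genes, which are not part of the respiratory chain, also lay below 0 (8 of 8, median -0.051). Without Cre replicate 10 the ribosomal median was -0.092.

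By complex, 33 of 36 nuclear complex I genes lay below 0 (median -0.099), with Ndufa3 at -0.22 and Ndufb7 at -0.19. For complex III it was 7 of 9 (median -0.061, with Uqcr11 at -0.21), for complex IV 11 of 11 (median -0.12, with Cox7b at -0.18 and Cox7a2 at -0.16), and for complex V 10 of 15 (median -0.074, with Atp5k at -0.20 and Atp5e at -0.18). These medians moved with single libraries but stayed below 0. That of complex I was -0.036 when Cre-miR122 replicate 4 was left out and -0.061 when Cre replicate 10 was. It was -0.16 when either Cre replicate 12 or Cre-miR122 replicate 1 was left out. Leaving out 1 library, the median ran from -0.14 to -0.0089 for complex III, from -0.19 to -0.067 for complex IV and from -0.13 to -0.020 for complex V, each lowest without Cre replicate 12 and highest without Cre replicate 10. Complex II, succinate dehydrogenase, has no subunit encoded on chrM. Of its 4 genes 2 lay below 0, with a median of 0.013 (-0.032 if Cre replicate 11 is left out, -0.0092 if Cre-miR122 replicate 1 is) and its flavoprotein gene Sdha at 0.16 (SE 0.12), and Cre replicate 11 was its lowest library. A difference between the members and the nuclear subunits was not tested.

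**Figure D5:**
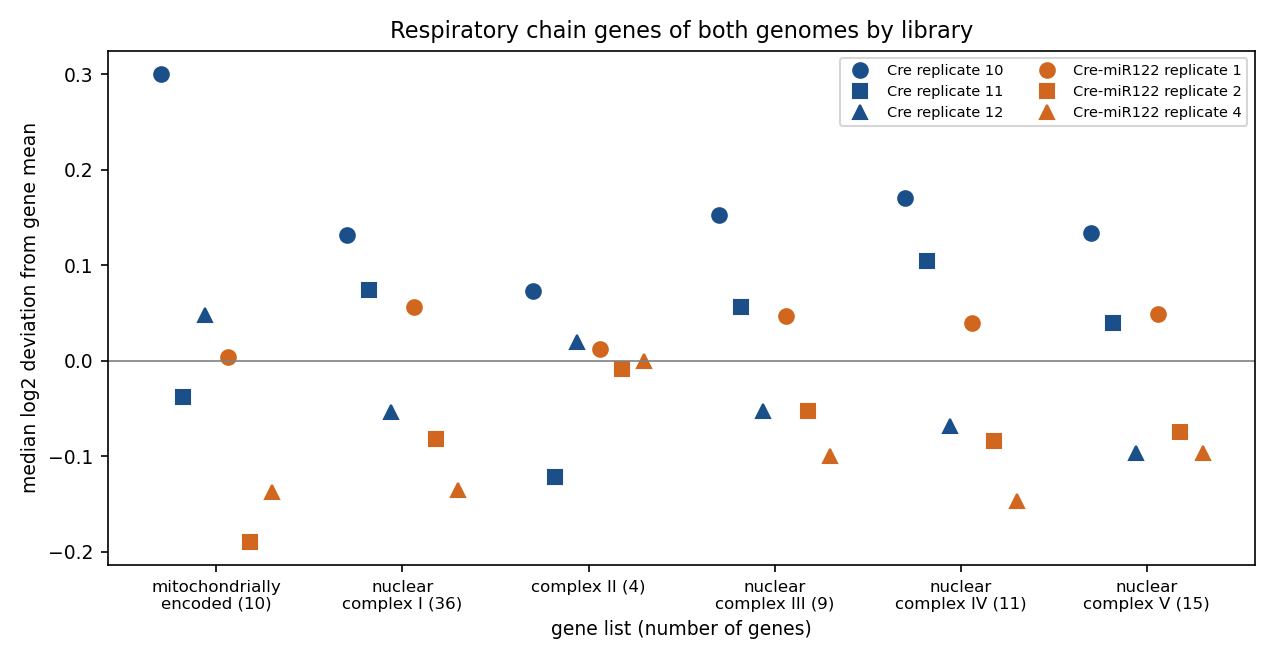
Median log2 deviation from the gene mean in each library for the 10 members and for the nuclear subunits of each complex, with the number of genes in brackets. Cre replicate 10 (blue circles) is highest in each list, at 0.30 for the members and 0.13 to 0.17 for nuclear complexes I, III, IV and V.

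Genes that copy, transcribe and process mitochondrial DNA showed no common direction. Of 17 genes for its transcription and replication 10 lay below 0, with a median of -0.023 (0.028 without Cre replicate 10 and -0.064 without Cre replicate 12). Polg, the catalytic subunit of the mitochondrial DNA polymerase, was at 54.9 ± 3.09 CPM with Cre and 63.0 ± 1.11 with Cre-miR122 (log2 fold change 0.20, SE 0.078, unadjusted p = 0.0299, edgeR adjusted p = 0.816). Tefm, the elongation factor of mitochondrial transcription, was at 13.0 ± 0.281 and 11.3 ± 0.472 CPM (log2 fold change -0.20, SE 0.095, edgeR adjusted p = 0.816). The termination factor gene Mterf1b was at -0.46 (SE 0.22), on 26 to 50 counts per library. Groups did not overlap for 4 of the 17 genes, Polg among them. In 2 of these, Tefm and Mterf1b, all Cre-miR122 libraries lay below all Cre libraries, as in 5.45% of all tested genes. Of 21 genes for processing and decay of the RNA 11 lay below 0, with a median of -0.0049, which ran from -0.051 without Cre-miR122 replicate 1 to 0.017 without Cre replicate 11. Among them Lrpprc, which stabilises mitochondrial messengers, was at 0.13 (SE 0.10), the transfer RNA nuclease gene Elac2 at 0.11 (SE 0.081) and Fastkd3 at -0.24 (SE 0.16).

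Regulators of mitochondrial biogenesis lay mostly above 0, 5 of 7 with a median of 0.13, and that median was -0.011 without Cre-miR122 replicate 1. It was 0.082 and 0.084 when Cre replicates 12 and 11 were left out in turn. They included the transcription factor genes Gabpa at 0.15 (SE 0.075) and Nrf1 at 0.15 (SE 0.11), and the coactivator gene Ppargc1b at 0.19 (SE 0.14). Of 36 tested genes for assembly of the complexes 21 lay above 0 (median 0.016, from -0.013 without Cre-miR122 replicate 1 to 0.039 without Cre replicate 10). Nubpl, an iron-sulfur factor for complex I, was at 0.36 (SE 0.11), Taco1, which activates translation of COX1, at 0.36 (SE 0.14), and the copper chaperone gene Cox17 at -0.26 (SE 0.11). These were at an unadjusted p of 0.0102, 0.0292 and 0.0409 and an edgeR adjusted p of 0.816 each. Of 11 genes that respond to mitochondrial stress 7 lay below 0 (median -0.084). This median was 0.022 without Cre-miR122 replicate 4, and -0.14, -0.19 and -0.20 without Cre replicate 12 and Cre-miR122 replicates 1 and 2. Fgf21, a hormone gene induced by such stress, was at 4.16, 8.996 and 1.85 CPM in Cre replicates 10, 11 and 12 and 2.89, 2.37 and 1.84 CPM in Cre-miR122 replicates 1, 2 and 4 (log2 fold change -1.09, SE 0.47). Its Cre replicate 11 value stood far above the rest, and the transcription factor genes Ddit3 (-0.50, SE 0.23) and Atf5 (-0.30, SE 0.13) were also highest there, at 13.2 and 383 CPM. None of the genes in these lists was called. Among 8 cytosolic ribosomal genes, 8 were below 0 with a median of -0.051, which was -0.0033 without Cre replicate 11 and -0.018 when Cre-miR122 replicate 4 was left out. It was -0.092 and -0.096 when Cre replicate 10 and Cre-miR122 replicate 1 were left out in turn.

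Nuclear genes with a like pattern were sought over the 6 libraries among 8271 tested genes with a mean of at least 10 CPM. The 5 nearest to the mean profile of the members, by root mean square difference of log2 deviations, were Igfbp7 (0.025), Sod3 (0.032), Gstt2 (0.038), Uap1l1 (0.040) and Slc35c1 (0.051). A gene that did not vary at all would lie at 0.16. Igfbp7, a secreted protein that binds insulin-like growth factors, ran from 77.0 CPM in Cre-miR122 replicate 2 to 110 CPM in Cre replicate 10, and Sod3, the extracellular superoxide dismutase, from 56.3 to 78.0 CPM between the same libraries.

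Markers of other cells were measured beside the members. Erythroid markers summed to 193 CPM in Cre replicate 10, the lowest library, and to 314 to 522 CPM in the other 5. Endothelial markers summed to 241 CPM in Cre replicate 10 against 201 to 231 CPM in the others, with Kdr and Pecam1 highest there. Lyve1 was lowest in Cre replicate 10, at 12.8 CPM, and Stab2 and Clec4g were highest in Cre-miR122 replicate 1. Lymphocyte markers lay at 12.1 to 16.8 CPM with Cre and 8.23 to 9.77 CPM with Cre-miR122, 3 of 4 with a log2 fold change below 0. Kupffer cell markers ranged from 391 to 492 CPM and from 328 to 438 CPM. The hepatocyte sum was lowest in Cre replicate 11, where Alb made up 93392 of 122132 CPM. Apob, Tat and Cps1 were also lowest there, whereas Apoa1 and Serpina1c were highest there, and Ttr and Hnf4a were neither. None of these markers was called, and their part in the members' values was not tested.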

How the data were processed

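The authors deposited whole-number read counts per gene, not normalized. The submitters' processing notes name STAR (2.7.9a), featureCounts (2.0.1) and the build GRCm38 (mm10). Strand setting, read length and handling of multi-mapped reads: not given in the sources used here. Groups and replicate numbers came from the sample titles, and 5 columns that match no sample of the series were not used. The main test was the edgeR 4.0.16 quasi-likelihood F test (R 4.3.3) on all 6 libraries with TMM scaling, filterByExpr and group alone, two-sided, called at a Benjamini-Hochberg adjusted p below 0.05 over 14374 genes. Standard errors came from the F statistic. CPM used TMM-scaled library sizes, and levels per kilobase the table's gene lengths. DESeq2 1.42.0 and limma 3.58.1 (voom), other scalings, library sizes and filters, robust dispersion and leaving out each library were alternatives. The edgeR code was tested on simulated data. GENCODE M21 gives the same coordinates as the table for all 13 chrM genes. Its transcripts were searched for exact windows of 50, 100 and 150 bases and for alignments of at least 50 bases at 90% identity. Alignments to genes on chr18 were left out, but exact windows were not. This search, and levels per unique window, were added after seeing the data. Members, gene lists and markers were chosen with earlier results of these data known. Named nuclear genes were up to 3 of each list with the smallest p, and the 5 with the nearest profile. The edgeR fit had a common biological coefficient of variation of 11.8%.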

Additional observations from a re-analysis of the deposited data

How the results depend on the processing

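The 10 members had a log2 fold change below 0 and 0 of them were called under all 16 alternative fits. The smallest adjusted p of a member lay between 0.460 and 1.00 over these. With other scalings, library sizes, filters or tools the median of the members ran from -0.24 to -0.20, and leaving out 1 library at a time it ran from -0.29 (without Cre replicate 11) to -0.090 (without Cre replicate 10). Single members ran from -0.44 to -0.035. The median over all genes never left 0 by more than 0.024. Over all genes, 2 were called with no low-count filter (23347 genes tested) and 3 by DESeq2, against 0 in the main test, and the cause was not tested. Genes at an unadjusted p under 0.05 numbered 1535 with Cre replicate 12 left out, 467 with Cre replicate 11 left out and 425 with Cre-miR122 replicate 4 left out. The Cre-miR122 mean share of the members was 6.54% when nuclear counts alone were the denominator, against 6.14% of all counts on chrM, by construction. Leaving out 1 library moved the mean share on chrM between 6.58% and 7.37% with Cre and between 6.05% and 6.25% with Cre-miR122. The median of the transcription and replication genes was 0.028 without Cre replicate 10 and -0.064 without Cre replicate 12. Counted per start of a unique 100-base window, ND4 went from 0.477 to 1.17 times ND1, COX1 from 2.16 to 2.99, COX2 from 0.00669 to 1.37, ATP6 from 0.0108 to 2.21 and COX3 from 0.00695 to 4.89. The last 3 rest on 3, 3 and 1 such starts. Values over so small a divisor do not estimate the levels of these genes, and why they are large was not tested. Only annotated copies are considered. No paired analysis was possible because the groups share no replicate numbers. Counts of 16 to 1356 per library limit COX2, COX3, ATP6 and the 3 other chrM genes.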
